A study of Homo sapiens with 6 samples.

Results

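The genes described are the replication-dependent histone genes, which encode the linker histone H1 and the core histones H2A, H2B, H3 and H4. Their members were the probe sets whose gene symbol in the platform annotation names a clustered copy of 1 of these 5 histone types. There were 61 such probe sets of 21448 tested, each for a gene of its own: 6 for H1, 14 for H2A, 17 for H2B, 9 for H3 and 15 for H4. The rule used names and no measured values. The RefSeq gene table (GRCh38.p14) lists 70 protein-coding genes whose symbols meet the same rule, and the other 9 were not analysed here.

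Core histones form the octamer around which DNA is wound, and H1 binds the linker DNA between nucleosomes. Cells need new histones when they copy their DNA, and the clustered genes are transcribed together in S phase, at nuclear bodies organised by the coactivator NPAT. Their short transcripts have no introns and end in a stem-loop that is bound by SLBP in place of a poly(A) tail. Variant histones such as H2A.Z and H3.3 come from other genes, with ordinary poly(A) tails, and are made throughout the cell cycle. The labelling kit used here primes along the transcript, not only at a poly(A) tail, so stem-loop transcripts can be read.

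T24 is an established human bladder cancer cell line. The cells were grown with 10% fetal bovine serum, held without serum for 12 h, and then given vehicle or oxidized low-density lipoprotein (ox-LDL, 20 µg/mL), an oxidized cholesterol-carrying plasma particle, for 24 h. The arrays titled CON are the vehicle group and those titled OXLDL the ox-LDL group, with 3 arrays each, all of the same line without any stated genetic change. Whether a group's samples came from separate cultures is not in the labels, so each p-value rests on a spread among samples that may be purely technical. A description field instead calls the groups negative control siRNA and siRNA against G9a, but EHMT2, the gene of G9a, was not lower on the arrays titled OXLDL (log2 values of 8.34, 8.26 and 8.06, against 8.005, 7.913 and 7.634). The third vehicle array stood apart, with correlations across probe sets of 0.979 to 0.988 with the other arrays, against 0.992 to 0.997 among those 5. The 5 background probe sets of high GC content averaged 7.90 (log2) there, and 7.32 to 7.43 elsewhere. Of 12 epithelial and urothelial markers, 10 lay above the 95th percentile of the negative controls (a log2 value of 5.09), while CDH1 and UPK3A did not. Also above it were 2 of 3 leukocyte markers (CD14 and CD3E, not PTPRC), 2 of 3 fibroblast markers (DCN and PDGFRB, not LUM) and all 3 endothelial markers (VWF, PECAM1 and CDH5), at mean log2 values of 5.44 to 7.37. None of the markers of epithelial cells, leukocytes, endothelium or fibroblasts passed between the groups.

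Few histone transcripts passed the test between ox-LDL and vehicle. Of the 61 probe sets, 2 fell, none rose and 59 did not pass (limma, Benjamini-Hochberg adjusted p under 0.05 over all probe sets). This share of 3.28% compares with 6.77% of all probe sets called, 3.48% higher and 3.29% lower, and is no larger than that background. The 2 that fell were H2BC26, an H2B gene, and H2AC25, an H2A gene, which are neighbours. At an unadjusted p under 0.05 there were 7 lower and 0 higher members, where 26.1% of all probe sets had such a p and 12.6% were lower by it, and with an unmoderated t statistic in place of limma's the same 2 passed. The median log2 difference of ox-LDL minus vehicle was 0.01 over the members and -0.03 over all probe sets; for the members it was 0.04 with equal array medians and -0.03 with cyclic loess. Signs were mixed, with 31 members above and 30 below 0. In bulk RNA, fewer cells in S phase and less histone RNA per cell cannot be told apart.

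The data limited how large an unseen change could be. For 57 of the 61 members the 95% interval of the difference lay within 1.5-fold in both directions, against 73.6% of all probe sets. This held for 51 of the 55 members above the 95th percentile of the negative controls. The 6 other members lay near background, where a narrow interval does not bound a change of the transcript. An interval is for the signal of a probe set, and probes that read several copies were not tested for. These intervals are not adjusted for the number of genes. Like the p-values, they rest on a spread among samples that may be purely technical, so they may be too narrow. The 4 exceptions were H2BC26, whose interval ran from -0.86 to -0.46, and 3 members with wide intervals, H2BC10 (-0.16 to 0.61), H2BC11 (-0.22 to 0.62) and H3C2 (-0.05 to 0.89). The median standard error was 0.08 over the members and 0.11 over all probe sets.

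**Figure D1:**
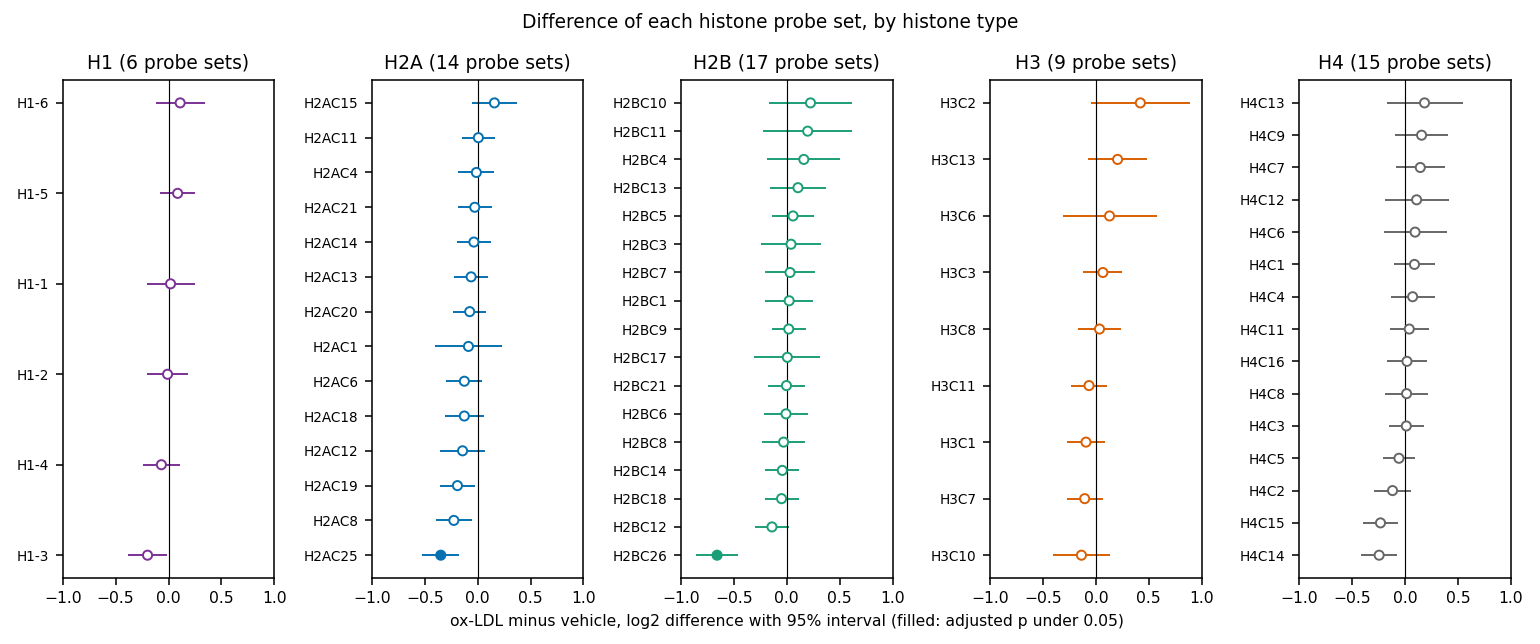
Log2 difference of ox-LDL minus vehicle (points) with its 95% interval (lines) for each of the 61 histone probe sets, in 1 panel per histone type. Filled points passed at an adjusted p under 0.05: only H2AC25 and H2BC26 did, and most other intervals include 0.

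H2BC26 and H2AC25 lie back to back on chromosome 1, apart from the larger histone clusters. H2BC26 had log2 values of 8.40, 8.52 and 8.58 with vehicle and 7.74, 7.91 and 7.88 with ox-LDL. Every ox-LDL array lay below every vehicle array. The mean went from 8.50 ± 0.09 to 7.84 ± 0.09 (SD, n = 3 each), a 1.58-fold fall (log2 difference -0.66, SE 0.08, limma adjusted p = 0.00809). H2BC26 was also the member that met the study's stated selection, an unadjusted p at or below 0.001 with at least a 1.5-fold change, which 2.31% of all probe sets met. Without ox-LDL replicate 1 its difference was -0.61 and its adjusted p 0.0517.

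H2AC25 had log2 values of 7.16, 7.28 and 7.17 with vehicle and 6.83, 6.82 and 6.92 with ox-LDL. Its groups did not overlap either. The mean went from 7.21 ± 0.07 to 6.86 ± 0.05 (SD, n = 3 each), a 1.27-fold fall (log2 difference -0.35, SE 0.07, limma adjusted p = 0.0408). This call was close to the threshold. It was lost without vehicle replicate 1 (adjusted p = 0.0733) or 2 (0.105), without ox-LDL replicate 1 (0.165), 2 (0.174) or 3 (0.120), with arrays set to equal medians (0.0593), quantile-normalized again (0.0584), scaled by cyclic loess (0.0804) or fitted with an intensity trend (0.0564), while the difference stayed between -0.29 and -0.38.

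The annotated starts of these genes are 229 bases apart and point away from each other, so that the stretch between them serves as upstream sequence for both. It is shown because these were the members that fell together. It is taken from RefSeq (GRCh38.p14), chr1:228457874-228458102, plus strand, with H2AC25 to the left and H2BC26 to the right, and capitals mark CCAAT boxes on either strand.

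H2AC25-H2BC26: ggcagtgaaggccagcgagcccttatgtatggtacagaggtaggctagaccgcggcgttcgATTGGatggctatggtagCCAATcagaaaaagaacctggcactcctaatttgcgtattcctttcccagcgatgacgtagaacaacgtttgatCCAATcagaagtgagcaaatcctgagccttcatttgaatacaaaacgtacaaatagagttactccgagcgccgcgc

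This stretch holds 3 CCAAT boxes, the binding site of the factor NF-Y. It holds no TATAAA and no ATTTGCAT, the octamer bound by the factor OCT1, on either strand. The letters of the other motifs searched (below for each histone type) are not in it.

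Divergent H2A and H2B genes are a common arrangement in these clusters, so other measured pairs were set beside this one. Among members with a RefSeq upstream window there were 8 pairs, with starts 214 to 247 bases apart. In 1 of these pairs both genes were called. H2AC12 had no such window, so any pair with it is not counted. H2AC8 had a log2 difference of -0.23 (SE 0.07) and its partner H2BC8 one of -0.03 (SE 0.09). H2AC6 had -0.13 (SE 0.07) against 0.16 (SE 0.15) for H2BC4, and H2AC20 had -0.08 (SE 0.07) against -0.00 (SE 0.07) for H2BC21. For H2AC13 and H2BC13 the differences were -0.06 and 0.11, for the testis genes H2AC1 and H2BC1 -0.09 and 0.02, for H2AC14 and H2BC14 -0.04 and -0.04, and for H2AC11 and H2BC11 0.01 and 0.20. Both partners were below 0 in 4 of the 8 pairs, and in 5 without vehicle replicate 3. Without that array H2BC4 was at -0.01, H2BC13 at 0.02 and H2BC11 at -0.02, so the size of these positive values, and for H2BC4 and H2BC11 the sign, turned on it. The difference between partners was not tested.

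**Figure D2:**
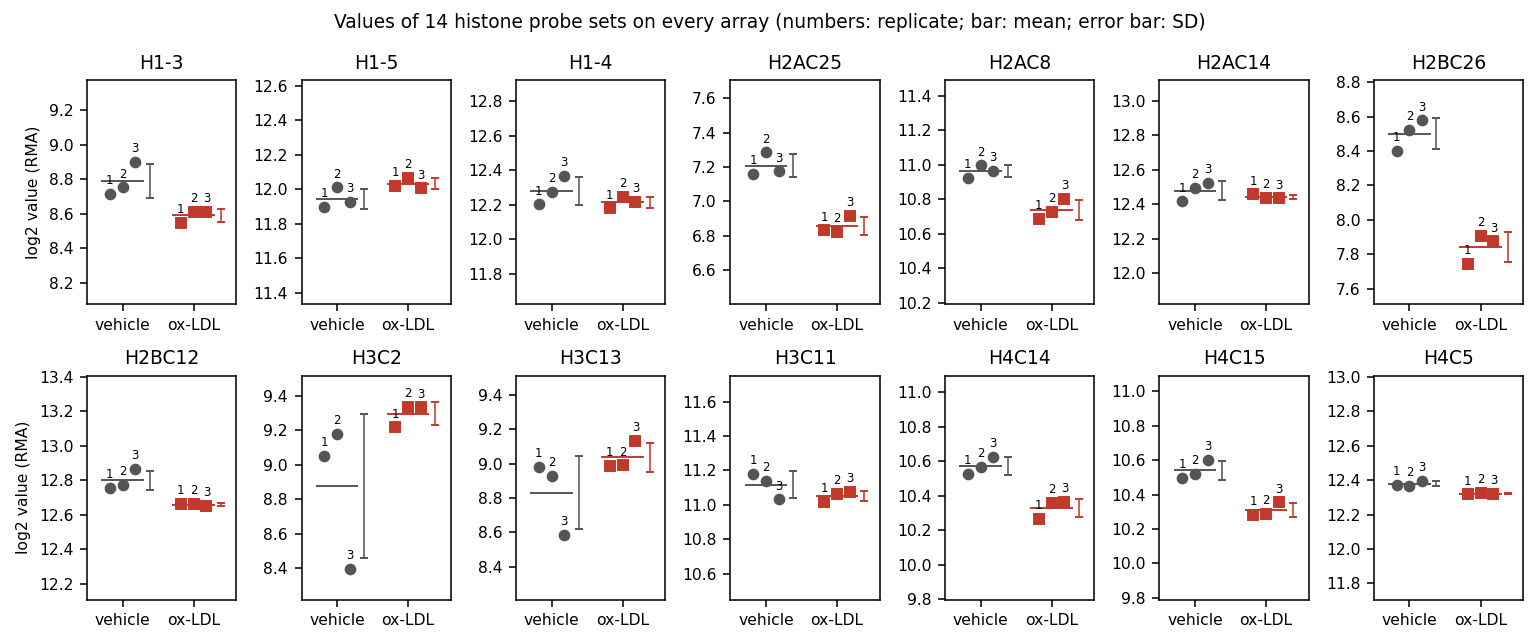
Log2 value (RMA) on each array for 14 histone probe sets, with vehicle as circles, ox-LDL as squares, replicate numbers beside the points, group means as bars and SD as error bars; every panel spans the same 1.3 log2 units. H2BC26 and H2AC25 are lower on all ox-LDL arrays, and in H3C2 and H3C13 the third vehicle array is low.

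Among the H1 genes, which encode linker histones, none of 6 passed, and their median difference was 0.005. H1-3 had log2 values of 8.71, 8.75 and 8.90 with vehicle and 8.55, 8.61 and 8.61 with ox-LDL. Its groups did not overlap, but the difference of -0.20 (SE 0.08, limma adjusted p = 0.173) did not pass. H1-5 was at 11.90, 12.01 and 11.93 with vehicle and 12.02, 12.07 and 12.01 with ox-LDL, a difference of 0.09 (SE 0.07) with overlapping groups. H1-4 was at 12.20, 12.28 and 12.37 against 12.18, 12.25 and 12.22, a difference of -0.07 (SE 0.08). H1-6, the testis form, had a mean of 5.22, close to the negative controls.

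The H2A genes had the lowest median of the 5 types, at -0.08. Of 14, H2AC25 fell and 13 did not pass, and 12 had a difference below 0. H2AC8 had log2 values of 10.926, 10.997 and 10.964 with vehicle and 10.68, 10.73 and 10.80 with ox-LDL. All ox-LDL arrays were lower, but its difference of -0.23 (SE 0.07, limma adjusted p = 0.109) did not pass. H2AC14 was at 12.42, 12.49 and 12.52 against 12.46, 12.44 and 12.43, a difference of -0.04 (SE 0.07) with overlapping groups. H2AC15, at the upper end, had a difference of 0.16.

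H2AC18 and H2AC19 are treated as near-identical copies from their upstream windows. Their transcripts were not compared here, so probes that read both genes were not tested for, and their values may not be separate evidence. H2AC19 had log2 values of 11.17, 11.22 and 11.09 with vehicle and 10.96, 10.99 and 10.95 with ox-LDL, and H2AC18 had 11.24, 11.28 and 11.11 against 11.04, 11.07 and 11.14. The differences were -0.19 (SE 0.07) and -0.13 (SE 0.08), and neither passed (limma adjusted p = 0.153 and 0.339). In RefSeq their windows, from 250 bases before to 50 after the start, agree in 299 of 299 bases when shifted by 1. The bases before the start of H2AC18 stand for both (GRCh38.p14, chr1:149842751-149843000, minus strand, written 5′ to 3′ along the gene), with CCAAT boxes and the TATA box in capitals.

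H2AC18: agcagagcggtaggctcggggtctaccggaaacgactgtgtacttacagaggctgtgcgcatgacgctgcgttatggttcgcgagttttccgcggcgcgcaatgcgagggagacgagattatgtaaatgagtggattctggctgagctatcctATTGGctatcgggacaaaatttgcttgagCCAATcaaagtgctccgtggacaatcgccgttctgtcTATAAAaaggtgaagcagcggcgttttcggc

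Of 17 H2B genes, H2BC26 fell and 16 did not pass, with a median difference of 0.02 and 7 below 0. Without vehicle replicate 3 the median was -0.03, with 13 below 0. H2BC12 had log2 values of 12.76, 12.77 and 12.86 with vehicle and 12.66, 12.66 and 12.65 with ox-LDL. Its ox-LDL arrays were all lower, by 0.14 on average (SE 0.07), which did not pass (limma adjusted p = 0.247). The largest positive difference was that of H2BC10 at 0.22 (SE 0.16), where vehicle replicate 3 read 8.40 and the other 5 arrays 8.95 to 9.06. Without that array the difference was 0.03.

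None of 9 H3 genes passed. H3C2 had the largest positive difference of all members, with log2 values of 9.05, 9.18 and 8.40 with vehicle and 9.22, 9.34 and 9.33 with ox-LDL. The groups did not overlap, but the third vehicle array lay far below the others, and the difference of 0.42 (SE 0.20, limma adjusted p = 0.229) was 0.18 without it. H3C13 was at 8.98, 8.93 and 8.59 against 8.99, 8.99 and 9.13, a difference of 0.21 (SE 0.12), or 0.08 without vehicle replicate 3. H3C11 was at 11.18, 11.14 and 11.03 against 11.02, 11.06 and 11.08, a difference of -0.07 (SE 0.07) with overlapping groups. The median over the type was 0.03, and -0.08 without vehicle replicate 3.

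None of 15 H4 genes passed, and their median difference was 0.04, with 11 above 0. Without vehicle replicate 3 it was -0.03, with 5 above 0. Most H4 genes encode the same protein, and their coding sequences are alike, so which copy an H4 probe set reads is uncertain. Transcripts of the other types were not compared either, so which copy their probe sets read was not tested. H4C14 had log2 values of 10.53, 10.57 and 10.63 with vehicle and 10.27, 10.36 and 10.37 with ox-LDL, and H4C15 had 10.50, 10.52 and 10.60 against 10.28, 10.29 and 10.35. In both, every ox-LDL array was lower, yet the differences of -0.24 (SE 0.07) and -0.23 (SE 0.07) did not pass (limma adjusted p = 0.0940 and 0.101). H4C5 was at 12.37, 12.37 and 12.39 against 12.32, 12.33 and 12.32, a difference of -0.06 (SE 0.06) that was the tightest of the members.

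H4C14 and H4C15 may likewise not be separate observations, since their RefSeq windows are identical in 300 of 300 bases. H4C11 and H4C12 agree in 295 of 300 bases (98.3%), with differences of 0.04 and 0.11. Of 1596 pairs among the 57 members with a window, these 2 pairs and H2AC18 with H2AC19 were the 3 at or above 90% identity. The bases before the start of H4C14 (GRCh38.p14, chr1:149832407-149832656, plus strand) are shown for the H4 type, with TTCCCGC and GGTCCG in capitals.

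H4C14: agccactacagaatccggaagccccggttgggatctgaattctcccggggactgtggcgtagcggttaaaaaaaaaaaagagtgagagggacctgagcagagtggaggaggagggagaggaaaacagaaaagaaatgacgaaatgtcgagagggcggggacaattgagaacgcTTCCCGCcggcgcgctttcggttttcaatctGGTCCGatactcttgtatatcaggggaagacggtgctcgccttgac

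Counting arrays that do not overlap, 13 members had all ox-LDL arrays below all vehicle arrays, against 17.7% of all probe sets, and 2 members had them above, against 19.1%. In either direction this held for 36.8% of all probe sets, so the members' 15 of 61 was no larger than the background. Taken by direction, the 13 of 61 were a somewhat larger share than 17.7%, and the 2 of 61 a smaller share than 19.1%. This split was not tested. The 13 included H2AC19, H4C14 and H4C15 from the copies above, besides H1-3, H2AC8, H2AC6, H2AC20, H2BC12, H3C7, H4C2 and H4C5, whose differences ran from -0.24 to -0.06, and the pair H2AC25 and H2BC26. The 2 higher ones were H3C2 and H3C13, whose differences without vehicle replicate 3 were 0.18 and 0.08.

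By position, the 49 members on chromosome 6 had 0 calls and a median difference of 0.02, and 29 of them were above 0. Without vehicle replicate 3 their median was -0.03, with 16 above 0. The 9 members of the main cluster on chromosome 1 had 0 calls and a median of -0.08, with 8 below 0 and H3C13 above it, and without that array the median was -0.09. H4C16, alone on chromosome 12, had a difference of 0.02, or -0.03 without it. Since H2AC18 with H2AC19 and H4C14 with H4C15 lie in the main chromosome 1 cluster, 4 of its 8 negative values come from these 2 pairs of copies.

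The sequences upstream of the members differ by histone type. RefSeq windows of 300 bases were found for 57 members, and not for H2AC12, H3C11, H4C1 and H4C3. Letters were searched on both strands, and none of the 6 motifs contains another. AAACACA, the H1 box, was in 6 of 6 H1 windows and in 1 of the other 51, against 5.76% of 27305 gene windows. CCAAT was in every H1, H2A, H2B and H3 window and in 3 of 13 H4 windows, against 35.7% of all. The octamer ATTTGCAT was in 14 of 17 H2B and 8 of 13 H2A windows, in no other member, and in 1.80% of all. Windows of divergent H2A and H2B partners overlap, so the same site can be counted in both. This was so for the octamers of H2AC1, H2AC6, H2AC8, H2AC11, H2AC14 and H2AC20 and those of their partners. GGTCCG, part of the H4 element bound by the factor HINFP, was in 12 of 13 H4 windows, always centred between -44.5 and -41.5 bases from the start, against 11.2% of all. TTCCCGC, part of the consensus of E2F factors, was in 10 of 13 H4 windows and in no other member, against 6.56% of all. TATAAA was in 39 of 57 windows, against 12.0% of all. Its matches were counted anywhere in the window. Their median centre was -194.5 bases from the start in H2B, and between -29.5 and -27.5 in the other types. A match is a description of letters, not a measured binding site.

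Upstream sequences of an H1, an H2B and an H3 member are given so that these types can be compared with the H2A and H4 examples above. All are RefSeq GRCh38.p14, minus strand, written along the gene, with every motif match in capitals: H1-3 from chr6:26234988-26235237, H2BC12 from chr6:27146859-27147108 and H3C2 from chr6:26032100-26032349. H1-3 shows the H1 box, a CCAAT box and a TATA box in that order. H2BC12 shows 6 CCAAT boxes, then ATTTGCAT and a TATA box close to the start; its first capitals are TATAAA read on both strands, overlapping. H3C2 shows 2 CCAAT boxes and a TATA box.
H1-3: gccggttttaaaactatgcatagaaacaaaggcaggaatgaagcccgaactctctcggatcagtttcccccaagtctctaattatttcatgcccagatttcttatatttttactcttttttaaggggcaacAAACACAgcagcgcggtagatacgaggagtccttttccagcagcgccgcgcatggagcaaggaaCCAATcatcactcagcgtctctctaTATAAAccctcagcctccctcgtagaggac
H2BC12: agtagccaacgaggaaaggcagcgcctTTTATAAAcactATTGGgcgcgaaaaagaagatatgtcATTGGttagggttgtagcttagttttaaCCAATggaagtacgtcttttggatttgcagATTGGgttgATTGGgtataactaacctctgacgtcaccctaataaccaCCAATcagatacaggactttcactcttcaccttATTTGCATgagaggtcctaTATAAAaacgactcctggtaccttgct
H3C2: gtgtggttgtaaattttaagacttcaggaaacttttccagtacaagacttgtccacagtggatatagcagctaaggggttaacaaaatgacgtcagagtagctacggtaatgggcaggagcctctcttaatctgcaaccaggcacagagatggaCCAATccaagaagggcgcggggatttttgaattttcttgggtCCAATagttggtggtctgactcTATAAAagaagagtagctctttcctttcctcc

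**Figure D3:**
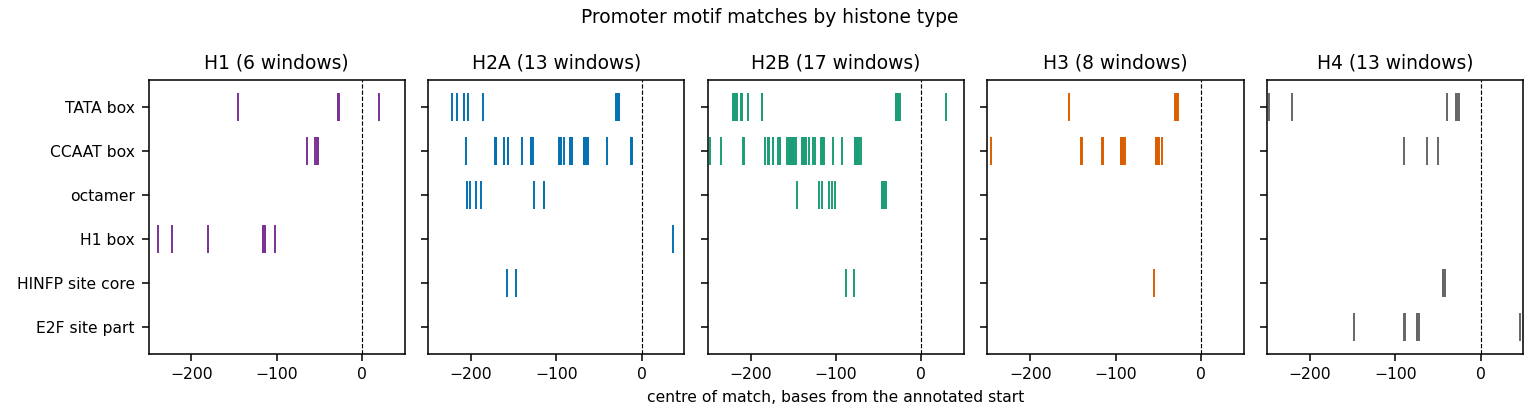
Positions of matches to 6 promoter motifs (rows) along the window from 250 bases before to 50 bases after the annotated start (horizontal axis, bases; dashed line at the start), with 1 panel per histone type and 1 tick per match on either strand. H1 box ticks lie almost only in the H1 panel, octamer ticks only in the H2A and H2B panels, CCAAT ticks are the most numerous in both of these, and the HINFP core forms 1 column in the H4 panel.

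The third vehicle array was low for many histone genes. It was the lowest of the 3 vehicle arrays for 38 members and the highest for 16, against 8120 and 9920 of 21448 probe sets. Its median offset from the mean of the other vehicle arrays was -0.09, against 0.03 over all probe sets. It lay more than 0.25 below them for 15 members: 7 of H2B, 4 of H3, 4 of H4 and none of H1 or H2A. Among all 21448 probe sets, 3908 lay that far below. The lowest offsets were those of H3C2 (-0.72), H2BC11 (-0.65), H3C6 (-0.63) and H2BC10 (-0.59). Without this array the count of members below 0 went from 30 to 44 and the median difference from 0.01 to -0.04. The same 2 members passed without it, H2BC26 at -0.62 and H2AC25 at -0.37, while the share of all probe sets called went to 12.4%. The part of its brighter GC-rich background in these offsets was not tested.

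**Figure D4:**
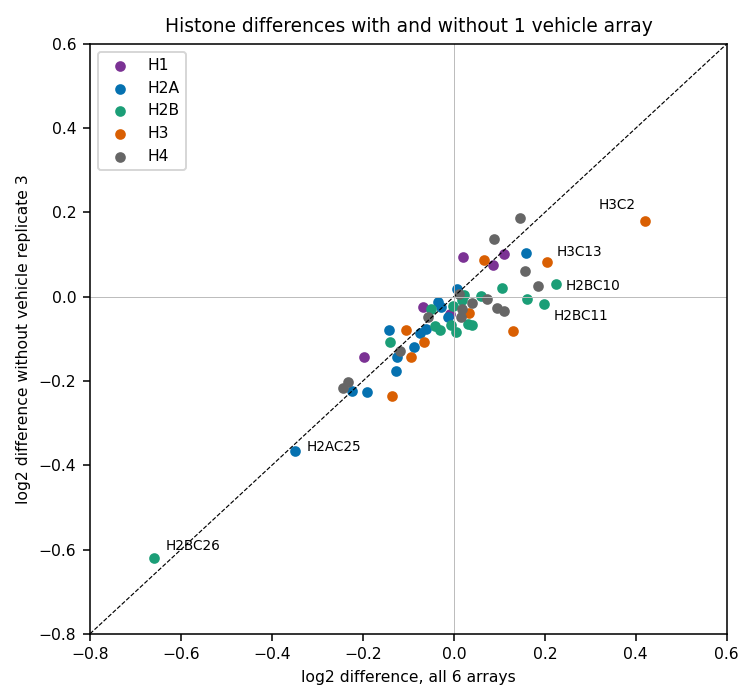
Log2 difference of ox-LDL minus vehicle for the 61 histone probe sets with all 6 arrays (horizontal) and without vehicle replicate 3 (vertical), coloured by type; the dashed line marks equal values. H2BC26 and H2AC25 lie near the line, while H3C2, H2BC10 and H2BC11 move from 0.42, 0.22 and 0.20 to 0.18, 0.03 and -0.02.

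Genes that copy DNA or open S phase, the phase in which these histones are made, were mostly higher with ox-LDL. Of 31 measured, 19 rose and 12 did not pass, with a median difference of 0.43, where 3.48% of all probe sets rose. The 19 include SLBP, described below. E2F1, a transcription factor of S phase entry, had a difference of 0.64 (SE 0.07), CCNE1, which encodes cyclin E1, of 0.62 (SE 0.08), the helicase subunit MCM3 of 0.64 (SE 0.09) and the replication factor GINS1 of 0.56 (SE 0.08), and all rose (limma adjusted p = 0.00554, 0.00690, 0.0104 and 0.0128). Leaving out vehicle replicate 3 made it 27 genes, and leaving out vehicle replicate 1 or 2 made it 13 or 9. Dropping an ox-LDL array cut it to 3, 2 or 3 genes for replicates 1, 2 or 3. The calls over all probe sets moved alike, to 2670, 806 and 718 without vehicle replicates 3, 1 and 2, and to 309, 305 and 335 without ox-LDL replicates 1, 2 and 3. E2F1 and CCNE1 passed with any 1 array left out, while MCM3 and GINS1 did not pass without any 1 of the ox-LDL arrays (adjusted p from 0.061 to 0.0772). The difference between this list and the histone members was not tested, and earlier results of these data already showed that such genes rose.

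The factors that transcribe and mature histone messages moved both ways. Of 27 measured, 5 rose, 1 fell and 21 did not pass, with a median of 0.24, beside 3.48% of all probe sets that rose and 3.29% that fell. SLBP, the stem-loop binding protein, is also counted among the genes that rose in the S phase list. It had log2 values of 9.05, 9.10 and 8.87 with vehicle and 9.49, 9.55 and 9.45 with ox-LDL. Its arrays did not overlap, and it rose by 0.49 (SE 0.09, limma adjusted p = 0.0228). NPAT was at 8.39, 8.56 and 8.28 against 8.76, 8.83 and 8.88 and rose by 0.41 (SE 0.09, limma adjusted p = 0.0484), again without overlap. The NPAT call lay close to the threshold and was lost with quantile normalization repeated (adjusted p = 0.0557), with cyclic loess (0.0534) or with an unmoderated t statistic (0.0971). Leaving out vehicle replicate 1 (0.0983) or 2 (0.0511), or ox-LDL replicate 1 (0.140), 2 (0.175) or 3 (0.179), also ended it. The SLBP call was lost with an unmoderated t statistic (0.0541), without vehicle replicate 1 (0.0554) and without ox-LDL replicate 1 (0.108), 2 (0.119) or 3 (0.0917).

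HINFP, the zinc finger factor that binds H4 promoters, went the other way. It had log2 values of 9.29, 9.23 and 9.50 with vehicle and 8.81, 8.89 and 8.71 with ox-LDL, and fell by 0.54 (SE 0.10, limma adjusted p = 0.0252). That call was lost with an unmoderated t statistic (0.0703), without vehicle replicate 1 (0.0606) and without ox-LDL replicate 1 (0.111), 2 (0.0864) or 3 (0.113). The Sm proteins SNRPF and SNRPE, which also belong to splicing particles, rose by 0.53 (SE 0.07) and 0.53 (SE 0.10). SNRPF did not pass without ox-LDL replicate 1 or 2, and SNRPE lost its call when vehicle replicate 2 or an ox-LDL array was dropped. CASP8AP2, a component of the same nuclear bodies as NPAT, was at 8.14, 8.28 and 6.99 with vehicle and 8.69, 8.59 and 8.61 with ox-LDL. Its difference of 0.82 (SE 0.32, limma adjusted p = 0.164) did not pass, and was 0.42 and passed without vehicle replicate 3, the low array (adjusted p = 0.020). In the whole list, dropping vehicle replicate 3 left 10 genes that passed, dropping vehicle replicate 1 or 2 left 3, and dropping ox-LDL replicate 1, 2 or 3 left 0, 0 or 1.

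Of 27 histone chaperones, which escort histones to and from DNA, 4 rose and 23 did not pass, with a median of 0.21, where 3.48% of all probe sets rose. CHAF1B, a subunit of the chromatin assembly factor that deposits new H3 and H4, rose by 0.63 (SE 0.07, limma adjusted p = 0.00599), from 9.33, 9.29 and 9.20 to 9.90, 9.95 and 9.85. MCM2, also in the S phase list, rose by 0.49 (SE 0.09), NASP, a chaperone of H1 and of soluble H3 and H4, by 0.32 (SE 0.07) and SUPT16H, a subunit of the H2A and H2B chaperone FACT, by 0.32 (SE 0.07). Dropping vehicle replicate 3 gave 8 that passed, vehicle replicate 1 or 2 gave 2 or 1, and each ox-LDL array in turn gave 1. CHAF1B passed with any 1 array left out. MCM2 lost its call when vehicle replicate 2 or an ox-LDL array was dropped, and NASP and SUPT16H did not without any 1 array other than vehicle replicate 3.

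The genes listed as variant histones gave no call among 16 measured, at a median of 0.03. In limma 3 of them were higher at an unadjusted p under 0.05 and none passed with an unmoderated t statistic. H2AZ1, a gene of H2A.Z, had log2 values of 11.83, 11.80 and 11.67 with vehicle and 12.05, 12.08 and 12.06 with ox-LDL. Its difference of 0.30 (SE 0.07, limma adjusted p = 0.0597) did not pass, though it passed without vehicle replicate 3 at 0.25 (adjusted p = 0.0363). H2BW2, MACROH2A2 and the linker histone H1-10 had differences of 0.28, 0.22 and -0.29.

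**Figure D5:**
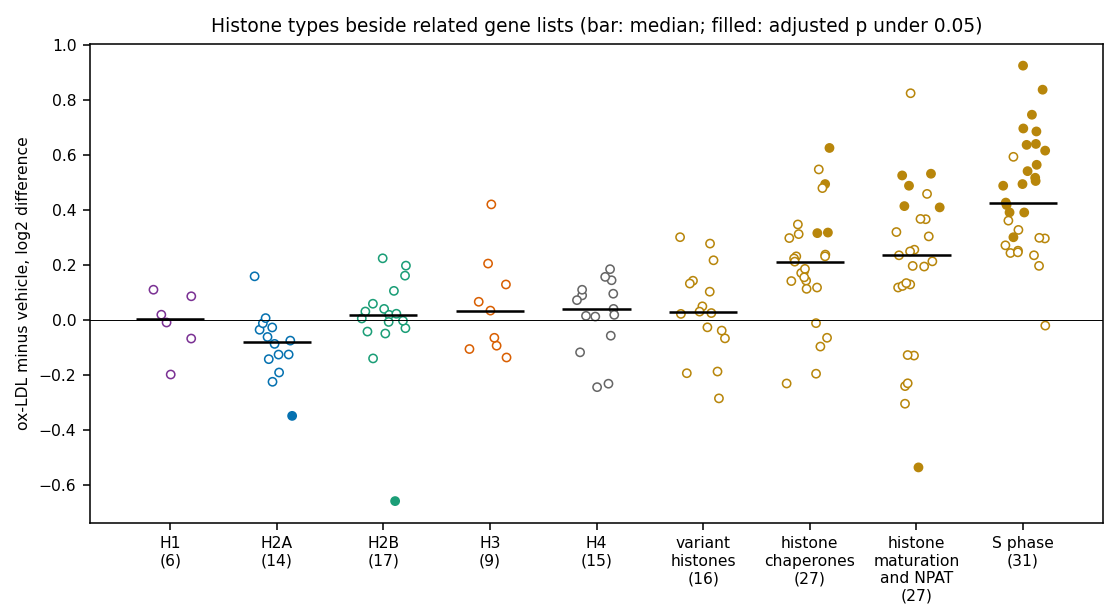
Log2 difference of ox-LDL minus vehicle (vertical) for each probe set of the 5 histone types and of 4 related gene lists, with the number of probe sets in brackets, medians as bars and filled points where the adjusted p was under 0.05. The histone types and variant histones centre near 0, with medians from -0.08 to 0.04, and the S phase list centres at 0.43.

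Levels were read against the negative controls, since the brightness of different probe sets cannot be compared. Of the 61 members, 55 had a mean above the 95th percentile of the negative controls. The 6 others were H2AC1 and H2BC1, which are known from testis, and H3C3, H3C6, H4C6 and H4C7, and none of them passed.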

How the data were processed

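Single-colour arrays of 6 samples were analysed. The values are on the log2 scale as deposited, and RMA made them, per the submitters' processing notes. Its version, the annotation and the genome build were not given in the sources used here. RMA makes the arrays' distributions alike. After 2902 control probe sets were removed, 21448 entered 1 limma model (limma 3.58.1, R 4.3.3) of group, with Benjamini-Hochberg adjusted two-sided p called under 0.05. Errors are SD over arrays or limma's standard error, and intervals are 95%. Depth does not apply to arrays, and their number limits precision. A platform table named 17709 probe sets, and all 61 members matched RefSeq by gene number and symbol. Where a gene has several promoter windows, the first listed was used.

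Members and lists were chosen with earlier results of these data known. Named were members that passed, the 2 with the smallest p and the brightest of each histone type, the 4 smallest p of each related list, and SLBP, NPAT and CASP8AP2. H2AC18, H2BC10 and other members named besides were chosen after their values were seen. The fit was tested on simulated data. Alternatives were other scalings, filters, variance models, thresholds, the replicate number as a block and leaving out each array. Figures were drawn with matplotlib 3.10.9.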

Additional observations from a re-analysis of the deposited data

How the results depend on the processing

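Results were recomputed under each alternative. None of the 14 members and 18 list genes picked by the naming rule changed direction, but most were picked for a small p. Over all 61 members, the count below 0 went from 30 to 44 without vehicle replicate 3. The count of histone members that passed was 2, and all calls under every alternative were lower. It was 1 with equal array medians, 1 with quantile normalization repeated, 1 with cyclic loess, 4 among probe sets above the median level, 6 with an intensity trend and robust fit, 6 with array weights, and 1 under the study's selection. H2BC26 passed in all of these, and H2AC8, H4C14 and H4C15 were in the sets of 4 and 6. The replicate number as a block left 1 member and 550 of 1451 calls over all probe sets. It left 1, 1 and 6 calls in the maturation, chaperone and S phase lists. Deviations of same-numbered arrays from their group means correlated at -0.01, 0.03 and 0.02. These correlations were small. With 3 arrays per group they cannot tell whether a replicate effect was shared or the samples were handled as pairs.

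The count over all probe sets was 2608 above the median level, 3962 with array weights, 2649 with an intensity trend and 496 under the study's selection. For the maturation list it was 10 above the median level, 12 with array weights, 2 with an unmoderated t statistic and 0 under the study's selection, against 6. For the chaperones it was 2 with cyclic loess, 10 above the median level, 9 with array weights, 10 with an intensity trend and 1 under the study's selection, against 4. For the variant histones it was 1, H2AZ1, with array weights, an intensity trend, quantile normalization repeated, or a filter at the negative controls or the median level, against 0. For the S phase list it was 29 with array weights, 11 with an unmoderated t statistic and 6 under the study's selection, against 19. The members' median difference of 0.01 was -0.045 with array weights. The cause of these changes was not tested.

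With 1 array left out, the count over all probe sets ran from 305 to 2670, the histone members from 0 to 2, the maturation list from 0 to 10, the chaperones from 1 to 8, the variant histones from 0 to 1, the S phase list from 2 to 27, and the members' median difference from -0.04 to 0.02. Signal near the negative controls limits the 6 dim members.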

Other observations

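H2A and H2B members were also split by the octamer ATTTGCAT after their values were seen, as a description without a test. The 22 members whose window held it had log2 differences from -0.23 to 0.22 with a median of -0.01. The 8 without it were H2AC13, H2AC15, H2AC18, H2AC19, H2AC25, H2BC5, H2BC13 and H2BC26. They ran from -0.66 to 0.16 with a median of -0.09, and hold both members that fell as well as the copies H2AC18 and H2AC19. These 8 are not separate sequences, since H2AC25 and H2BC26 share an upstream stretch, as do H2AC13 and H2BC13. The lack of the exact letters ATTTGCAT in both members that fell is therefore 1 observation, and near matches were not searched. The 22 also hold divergent partners.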
